A study of Solanum lycopersicum with 6 samples.

Results

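Jasmonate synthesis and response genes were followed in tomato (Solanum lycopersicum) roots of an slszp1 mutant, named for SZP1, a C2H2 zinc finger protein, and in wild type roots. All plants were 20 days old and all were in a 60 µM Al solution at pH 4.7, so aluminium is shared by both genotypes and each difference below is one between genotypes under Al. RNA was sequenced from 3 slszp1 mutant and 3 wild type libraries, which the labels call biological replicates. The labels do not give the lesion of the slszp1 line, the number of independent mutant lines or the wild type cultivar. Roots without Al were not analysed here, and no gene description in the table names SZP1, so its own transcript could not serve as a check of the genotypes.

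Members were taken by words in the gene description: jasmonate or jasmonic, TIFY, allene oxide, lipoxygenase or 12-oxophytodienoate. The rule took 98 of 35768 listed genes. Of these, 8 are outward rectifying potassium channels, which match only because the letters of TIFY occur inside "rectifying". They are described separately and are not jasmonate genes, which leaves 90. Lipoxygenases make up 41 of the 90 and JAZ or TIFY proteins 24. The others are 13 genes for 12-oxophytodienoate reductases, 3 for allene oxide synthase, 2 for allene oxide cyclase, 4 for methyl jasmonate esterase and 3 described as jasmonic acid 1, 2 and 3.

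Jasmonates are hormones made from linolenic acid of plastid membranes. A 13-lipoxygenase adds oxygen to the fatty acid, allene oxide synthase and allene oxide cyclase turn the product into 12-oxophytodienoic acid, and a peroxisomal reductase and rounds of beta-oxidation shorten it to jasmonic acid. The isoleucine conjugate joins the F-box protein COI1 to a JAZ repressor, the JAZ protein is degraded, and MYC2 and related factors are released. JAZ genes are themselves targets of MYC2 in many plants, so their transcripts are often read as a response to the hormone. In tomato the pathway is best known from wounding and insect attack, and jasmonate also restrains root growth.

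Levels are TPM (transcript abundance scaled to gene length and to a common library total), and values for 3 libraries are listed as libraries 1, 2 and 3, numbered by the replicate numbers of the labels. Genes that reached 1 TPM in at least 3 of 6 libraries were tested with limma on log2(TPM + 1). A difference is mutant minus wild type on that scale with its standard error (SE), a scale on which changes of low genes look smaller than they are. "Rose" and "fell" are used only for a Benjamini-Hochberg adjusted p under 0.05 over all 17702 tested genes. Sequencing depth is unknown because TPM does not keep it.

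Among the 90 jasmonate genes, transcripts moved in both directions in the mutant. Of the 32 that were tested, 5 rose, 7 fell and 20 did not pass, and 18 had an unadjusted limma p under 0.05. Of the 7, 1 methyl jasmonate esterase gene entered the test through the wild type libraries alone and reached 1 TPM in 0 mutant libraries. The share called, 37.5%, stands beside 19.2% of all tested genes. Members that rose can be set beside a background of 8.71% and members that fell beside one of 10.5%. In 8 tested members every mutant library was above every wild type library (background 18.2%), and in 11 every mutant library was below (background 20.2%). The median difference of the 32 was -0.10. With the potassium channels included, 36 members were tested, 6 rose and 7 fell. These counts lean on single libraries. Without wild type library 1, limma called 0 of the 36 higher and 3 lower, while 8 and 8 had an unadjusted p under 0.05. Of the 13 calls, 3 were kept without that library, 6 without wild type library 3, 6 without slszp1 library 1, 8 without slszp1 library 2, 7 without slszp1 library 3 and 12 without wild type library 2. The calls kept in all 12 refits (another pseudocount, filter, scaling or model, or 1 library left out) were 1 lipoxygenase, allene oxide cyclase and 1 JAZ gene, all 3 lower in the mutant. Of these, the JAZ gene alone also met a requirement of at least 2-fold on the log2(TPM + 1) scale. Allene oxide cyclase just missed it at -0.98, and its difference was -1.09 with a pseudocount of 0.1.

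Libraries of one genotype resembled each other more than the other genotype, with Pearson correlations across genes, which are not independent replicates, of 0.971 to 0.98 in the mutant, 0.952 to 0.974 in wild type and 0.877 to 0.916 between them. Root marker genes summed to 250.0 to 255 TPM in mutant and 243 to 263 TPM in wild type libraries. Of 10 tested root markers, 0 were called by limma and 1 had an unadjusted p under 0.05. Green tissue markers summed to 729 to 790.3 TPM in slszp1 roots and 584 to 616 TPM in wild type. Of 39 tested markers 4 were higher and 3 lower (background 8.71% and 10.5% of all tested genes). The chlorophyll a-b binding genes among them did not share the higher sum, at 42.5 to 50.2 TPM in slszp1 roots and 47.9 to 63.5 TPM in wild type, with overlap. Rubisco small subunit genes, which define green tissue, were at 0 in the mutant and at most 0.06 TPM in wild type. Genes described by the word wound, 23 in number, summed to 2464 to 2809 TPM in slszp1 roots and 2973 to 3679 TPM in wild type. Of 11 tested, 2 rose and 0 fell by limma, a share of 18.2% beside 19.2% of all tested genes, with 1 lower at an unadjusted p under 0.05. The part of these markers in the jasmonate values was not tested.

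**Figure D1:**
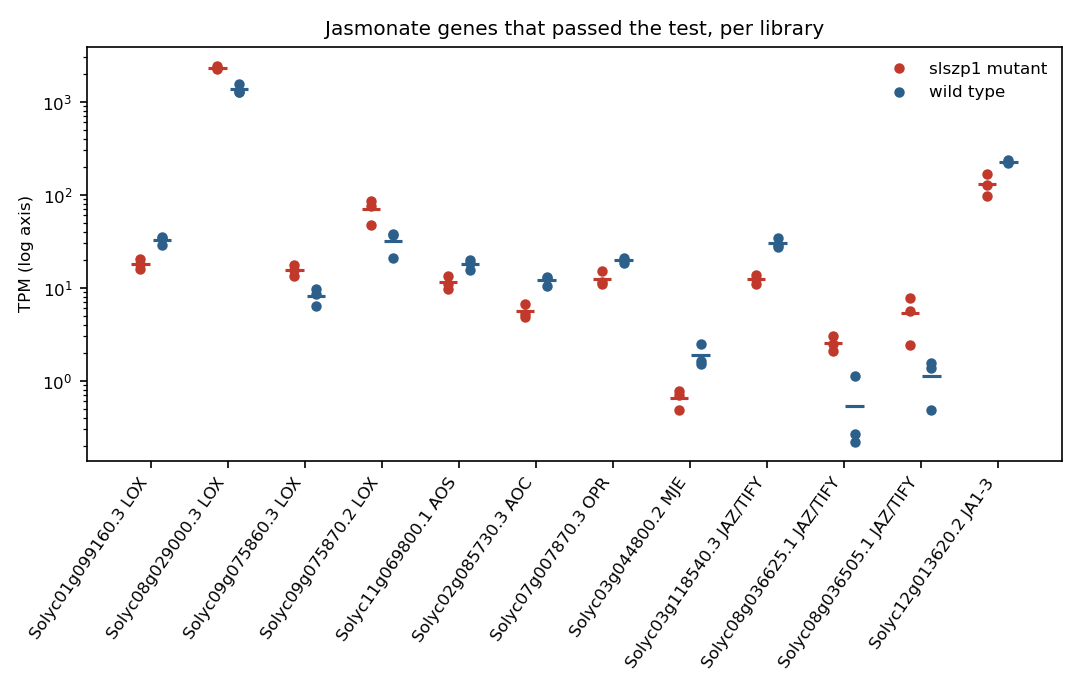
TPM (log axis) of the 12 jasmonate genes that passed the test, with 3 slszp1 mutant libraries (red) and 3 wild type libraries (blue) as points and the group mean as a bar. LOX is lipoxygenase, AOS allene oxide synthase, AOC allene oxide cyclase, OPR 12-oxophytodienoate reductase and MJE methyl jasmonate esterase; the red and blue points of each gene do not overlap, and the lipoxygenase Solyc08g029000.3 is the most abundant of them in every library.

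Lipoxygenases carried nearly all of the family's transcript in 1 gene, and that gene rose. Solyc08g029000.3 had 2419.7, 2241 and 2279 TPM in slszp1 roots and 1266, 1265 and 1562 TPM in wild type. Every mutant library was above every wild type library. It rose by 0.77 (SE 0.17; limma adjusted p 0.0162). The p was 0.0684 without wild type library 1 and 0.0688 without slszp1 library 1. In these bulk roots, more cells of a kind that holds this transcript and more transcript per cell cannot be told apart, and the same is true of each difference below. The gene made up 91.2% to 92.1% of all lipoxygenase TPM in slszp1 roots and 86.8% to 89.3% in wild type. The 41 lipoxygenase genes together summed to 2630.4, 2433 and 2499 TPM in slszp1 roots and 1428, 1457 and 1749 TPM in wild type. The description does not say whether this enzyme is a 9- or a 13-lipoxygenase. Only 13-lipoxygenases feed jasmonate synthesis, and 9-lipoxygenases start other oxylipins.

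Of 10 tested lipoxygenases, 3 rose, 1 fell and 6 did not pass, a called share of 40% beside 19.2% of all tested genes. Their median difference was 0.00, or -0.24 without wild type library 3 and 0.22 without wild type library 2. Solyc09g075860.3 had 15.3, 13.5 and 17.5 TPM in slszp1 roots and 6.3, 9.63 and 8.57 TPM in wild type. It rose by 0.85 (SE 0.20; limma adjusted p 0.0185, and 0.0656, 0.0588 and 0.0587 without wild type library 1, slszp1 library 1 and slszp1 library 3). Its neighbour by identifier, Solyc09g075870.2, had 76, 47 and 84.7 TPM in slszp1 roots and 20.9, 37.2 and 38 TPM in wild type. All 3 mutant libraries were again the higher ones, by 1.09 (SE 0.29; limma adjusted p 0.0353). The call of this second gene was lost with no filter on low values (0.0646) and without wild type library 1 (0.0787), wild type library 3 (0.0512), slszp1 library 1 (0.109) or slszp1 library 3 (0.123). Both descriptions cite the same best match, so reads may be shared between the copies and the split of TPM between them is uncertain.

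Solyc01g099160.3 was the lipoxygenase that fell. It had 16, 20.1 and 17.9 TPM in slszp1 roots and 29.1, 34.5 and 35.1 TPM in wild type. The highest mutant library stayed below the lowest wild type library, and the difference was -0.84 (SE 0.15; limma adjusted p 0.00693, with alternatives giving 0.00719 to 0.0331). Solyc09g055900.3, chosen after its values were seen because it lay just outside the threshold, had 1.43, 1.38 and 1.98 TPM in slszp1 roots and 3.84, 2.51 and 3.35 TPM in wild type. Its limma adjusted p was 0.0577, but 0.0357 without wild type library 2, 0.0366 without the trend and robust options and 0.0382 with each library centred on its median.

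The 13-lipoxygenase of the tomato wound response did not separate the genotypes. Lipoxygenase D (Solyc03g122340.3), the plastid enzyme for wound-induced jasmonate in tomato leaves, had 35.2, 45.5 and 18.9 TPM in slszp1 roots and 28.4, 45.9 and 29 TPM in wild type. Wild type libraries lay inside the mutant range or, in library 2, just above it. The difference was -0.10 with a 95% interval of -0.87 to 0.67, and its sign turned without wild type library 2 (0.12) or slszp1 library 3 (0.25). Solyc05g014790.3 had 30, 28.4 and 37 TPM in slszp1 roots and 23.9, 20.2 and 26.3 TPM in wild type, without overlap, but did not pass (0.42, SE 0.17; limma adjusted p 0.119). Solyc11g011400.2, described as a linoleate 9S-lipoxygenase by a match to part of the protein, had 21.4, 19.8 and 15.7 TPM in slszp1 roots and 30, 17.8 and 23.5 TPM in wild type, with overlap (-0.29, SE 0.21). Lipoxygenase A (Solyc08g014000.3, chosen after its values were seen), a 9-lipoxygenase of tomato, had 14.7 ± 4.53 TPM in slszp1 roots and 14.3 ± 6.44 TPM in wild type (SD, n = 3). Lipoxygenases B and C (Solyc01g099190.3 and Solyc01g006540.3), which tomato fruit expresses, did not exceed 0.02 TPM in any root library.

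Among the members for the 3 enzymes that follow lipoxygenase, the called genes were all lower in the mutant. Of 18 genes for allene oxide synthase, allene oxide cyclase and 12-oxophytodienoate reductase, 7 were tested, 3 fell and 0 rose by limma. Of all tested genes, 10.5% fell and 8.71% rose. At an unadjusted p under 0.05, 4 were lower and 0 higher, and the median difference of the 7 was -0.60. The genes Solyc04g079730.1 and Solyc11g032133.1, nearest to 0, turned slightly positive under quantile normalization (0.004 and 0.002). Both also turned positive, by a larger amount, without slszp1 library 1, so their sign depends on single libraries. In 4 of the 7 the slszp1 libraries were the 3 lowest (background 20.2% of all tested genes).

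Allene oxide synthase, the cytochrome P450 that commits the lipoxygenase product to jasmonate, had 1 tested gene that fell and 1 that did not pass. Solyc11g069800.1 had 9.62, 11.1 and 13.5 TPM in slszp1 roots and 19.9, 15.6 and 18.2 TPM in wild type. The groups did not overlap, and the difference was -0.62 (SE 0.18; limma adjusted p 0.0453, just under the threshold). This call was lost in limma without the trend and robust options (0.0533), with no filter on low values (0.0667) and without wild type library 1 (0.158), wild type library 3 (0.111), slszp1 library 1 (0.152) or slszp1 library 2 (0.124). Solyc04g079730.1 had 2.28, 5.91 and 3.57 TPM in slszp1 roots and 5.09, 2.33 and 4.7 TPM in wild type. Its groups overlapped throughout, with a difference of -0.05 (95% interval -0.82 to 0.72).

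Allene oxide cyclase, which sets the stereochemistry of 12-oxophytodienoic acid, fell the most of these enzymes. Solyc02g085730.3 had 6.61, 5.27 and 4.88 TPM in slszp1 roots and 12.6, 12.9 and 10.4 TPM in wild type, or 5.59 ± 0.907 against 12 ± 1.37 TPM (SD, n = 3). Every mutant library was below every wild type library, and the difference was -0.98 (SE 0.18; limma adjusted p 0.00735, with alternatives giving 0.00779 to 0.0348). The other gene described as allene oxide cyclase was at 0 in all 6 libraries.

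12-Oxophytodienoate reductase 3, the peroxisomal isoform used for jasmonic acid in tomato and Arabidopsis, also fell. Its gene, Solyc07g007870.3, had 15.2, 11.5 and 10.9 TPM in slszp1 roots and 21.1, 18.4 and 19.8 TPM in wild type. The groups did not overlap, and the difference was -0.63 (SE 0.17; limma adjusted p 0.0350). Without wild type library 1 the p was 0.121, without wild type library 3 0.0868, without slszp1 library 2 0.117, without slszp1 library 3 0.0906, with each library centred on its median 0.0501 and with no filter on low values 0.0522. The most abundant gene of the group, described as 12-oxophytodienoate reductase 2 (Solyc01g103390.3), had 148, 129 and 176 TPM in slszp1 roots and 206, 156 and 253 TPM in wild type. The lowest wild type library lay inside the mutant range, and the gene did not pass (-0.42, 95% interval -0.90 to 0.05; limma adjusted p 0.203).

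Solyc10g086220.2, described as a 12-oxophytodienoate reductase without a number, had 16.6, 15.5 and 17.2 TPM in slszp1 roots and 28.5, 18.1 and 31.2 TPM in wild type. All mutant libraries were the lower ones, but the spread in wild type was wide and the gene did not pass (-0.60, SE 0.21; limma adjusted p 0.0837, and 0.00808 without wild type library 2). Solyc11g032133.1, a reductase-like gene, had 3.69, 4.28 and 7.5 TPM in slszp1 roots and 4.92, 5.35 and 5.12 TPM in wild type, with the wild type values inside the mutant range.

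Methyl jasmonate esterase releases jasmonic acid from its volatile methyl ester, and the genes described so were low in these roots. Solyc03g044800.2 had 0.49, 0.77 and 0.7 TPM in slszp1 roots and 1.52, 2.5 and 1.64 TPM in wild type. It fell by 0.79 on the log2 scale (SE 0.22; limma adjusted p 0.0396), but it reached the expression minimum only in wild type. It no longer passed without any 1 library, with a p of 0.0700 without wild type library 1, 0.0757 and 0.0755 without the other two wild type libraries, and 0.129, 0.0836 and 0.0790 without slszp1 libraries 1, 2 and 3. Its neighbour by identifier, Solyc03g044820.3, was higher in the mutant, at 0.87, 0.59 and 1.36 TPM against 0.39, 0.1 and 0.11 TPM, without overlap but below the minimum for testing. A gene with an identifier between them, Solyc03g044810.2, chosen after its values were seen, had 1.94, 0 and 3.98 TPM in slszp1 roots and 0.2, 0 and 0.64 TPM in wild type. The 3 descriptions cite the same best match, so reads could be split between these copies.

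**Figure D2:**
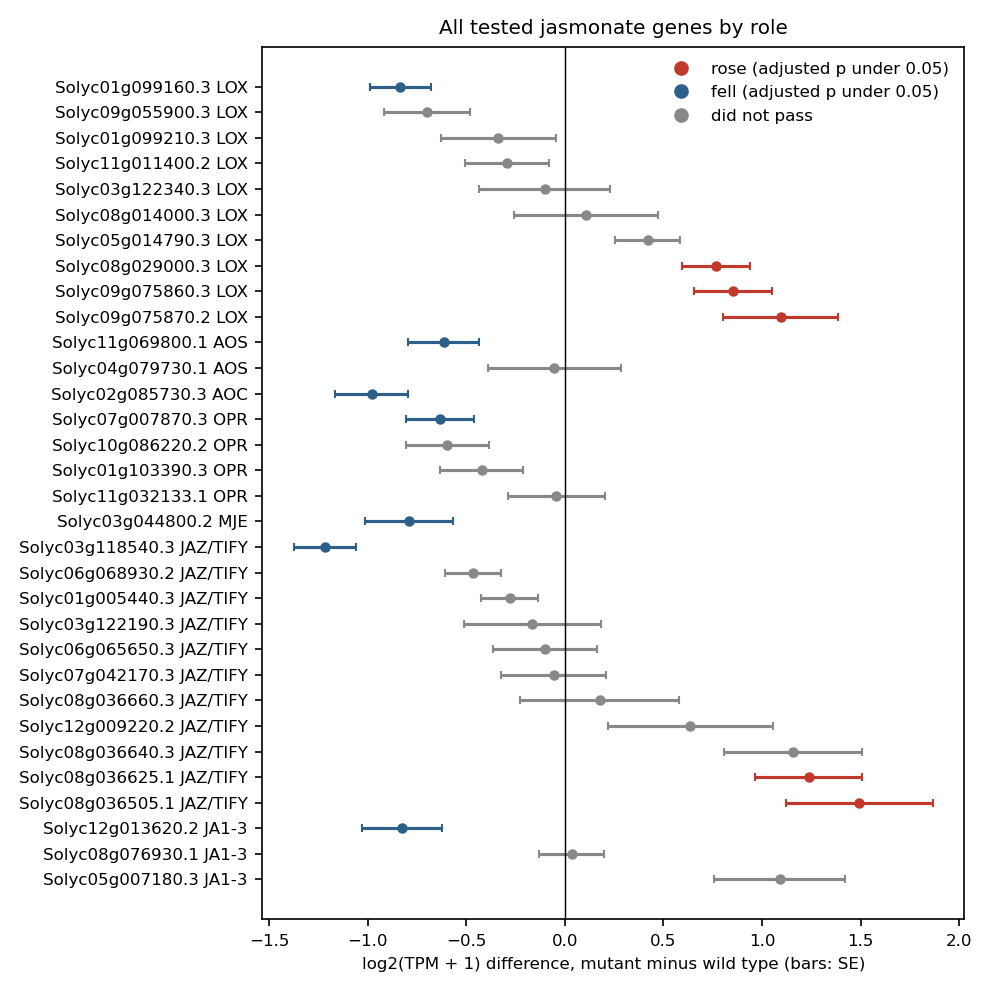
Differences in log2(TPM + 1), mutant minus wild type, for the 32 tested jasmonate genes in order of role, with bars of 1 SE. Genes that rose are red, genes that fell are blue and the others grey. The 7 tested synthase, cyclase and reductase genes lie left of 0, from -0.98 to -0.04, while lipoxygenases and JAZ genes lie on both sides. Of the 7, the 2 nearest to 0 turned positive under quantile normalization and without slszp1 library 1.

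JAZ repressors did not move as a block. Of 11 tested JAZ and TIFY genes, 2 rose, 1 fell and 8 did not pass, a called share of 27.3% beside 19.2% of all tested genes. Of the 11, 5 had an unadjusted limma p under 0.05. The median difference was -0.06, which turned to 0.26 without slszp1 library 3 and 0.01 without wild type library 1. The names below are those of the descriptions, mostly borrowed from tobacco, and do not follow one tomato numbering. Solyc03g118540.3, described as JAZ protein 7b, had 13.6, 11 and 12.4 TPM in slszp1 roots and 27.7, 33.9 and 28.6 TPM in wild type. The mutant libraries were tightly grouped at 12.4 ± 1.31 TPM, below all wild type libraries at 30.0 ± 3.35 TPM (SD, n = 3). It fell by 1.22 on the log2 scale (SE 0.16; limma adjusted p 0.00131, with alternatives giving 0.00147 to 0.0105).

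Both JAZ genes that rose are described as JAZ protein 12a and carry identifiers close to each other. Solyc08g036505.1 had 7.79, 5.62 and 2.45 TPM in slszp1 roots and 1.38, 1.54 and 0.49 TPM in wild type. The groups did not overlap, and the difference was 1.49 (SE 0.37; limma adjusted p 0.0256). Its p was 0.0574 without wild type library 1, 0.0765 without wild type library 3, 0.0766 without slszp1 library 1, 0.0830 without slszp1 library 2 and 0.0523 with no filter on low values. Solyc08g036625.1, matched over part of the protein, had 2.47, 3.02 and 2.08 TPM in slszp1 roots and 0.27, 0.22 and 1.12 TPM in wild type. Again all mutant libraries were higher, by 1.24 (SE 0.27; limma adjusted p 0.0148). It no longer passed without wild type library 1 (0.0559) or slszp1 library 2 (0.0549).

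Further JAZ genes with nearby identifiers were named after their values were seen. Solyc08g036640.3 had 2.04, 3.58 and 1.23 TPM in slszp1 roots and 0, 1.05 and 0.37 TPM in wild type. It lay just outside the threshold (1.16, SE 0.35; limma adjusted p 0.0511), and passed under quantile normalization (0.0469), without wild type library 2 (0.0225) and without slszp1 library 3 (0.0481). Solyc08g036660.3 had 7.48, 14.5 and 5.0 TPM in slszp1 roots and 9.15, 4.19 and 9.38 TPM in wild type, with overlap. Near-identical copies in this stretch could share reads, so values of single genes there are uncertain.

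The abundant JAZ genes did not pass. JAZ protein 3 (Solyc01g005440.3) had 119, 138 and 115 TPM in slszp1 roots and 146, 141 and 164 TPM in wild type, lower in every mutant library (-0.28, SE 0.15; limma adjusted p 0.225). Solyc07g042170.3 had 109, 142 and 64 TPM in slszp1 roots and 95.9, 110.3 and 106 TPM in wild type. Its 3 wild type values all fell between slszp1 libraries 2 and 3. JAZ protein g (Solyc06g068930.2) had 83.6, 94 and 80.4 TPM in slszp1 roots and 120.5, 109 and 127 TPM in wild type. It was lower in every mutant library and lay just outside the threshold (-0.47, SE 0.14; limma adjusted p 0.0506, but 0.0357 without wild type library 2 and 0.0378 under quantile normalization).

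JAZ protein 1 (Solyc12g009220.2), named after its values were seen, was the JAZ gene that varied most among mutant libraries. It had 86.6, 141 and 40 TPM in slszp1 roots and 46.3, 54.1 and 51 TPM in wild type. The highest mutant library held 3.52 times the lowest, against 1.17 times in wild type. With all libraries the difference was 0.64 (95% interval -0.35 to 1.63; limma adjusted p 0.346), and without slszp1 library 3 the p was 0.0217. Protein TIFY 8 (Solyc06g065650.3), which in Arabidopsis lacks the domain that binds MYC factors, had 2.84, 1.88 and 4.27 TPM in slszp1 roots and 3.86, 3.01 and 2.7 TPM in wild type.

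The mutant libraries ranked alike in most JAZ genes. This pattern was noticed in the values, so it is a description with no test. The slszp1 library 2 was highest and library 3 lowest in 8 of 11 tested JAZ and TIFY genes (72.7%), in 1 of 10 lipoxygenases (10%) and in 11 of the 32 jasmonate genes (34.4%). Of all 17702 tested genes, 2305 (13.0%) showed that order. With at least 2-fold between the highest and the lowest mutant library, the order held for 5 of 11 JAZ and TIFY genes (45.5%) and for 339 of all tested genes (1.92%). The median ratio of highest to lowest library among JAZ and TIFY genes was 2.27 in the mutant and 1.33 in wild type, while over all tested genes it was 1.38 and 1.40. Summed over the family, JAZ and TIFY transcripts stood at 440.4, 568 and 333 TPM in slszp1 roots and 461, 466 and 502 TPM in wild type. The 1 lipoxygenase with the order was lipoxygenase D, at the values given above. Jasmonic acid 2 (Solyc12g013620.2) and jasmonic acid 3 (Solyc08g076930.1), described below, had the order as well. These JAZ genes share their libraries and several may share reads, so they are not independent of each other. What separates the 3 mutant libraries is not given in the labels and was not tested.

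**Figure D3:**
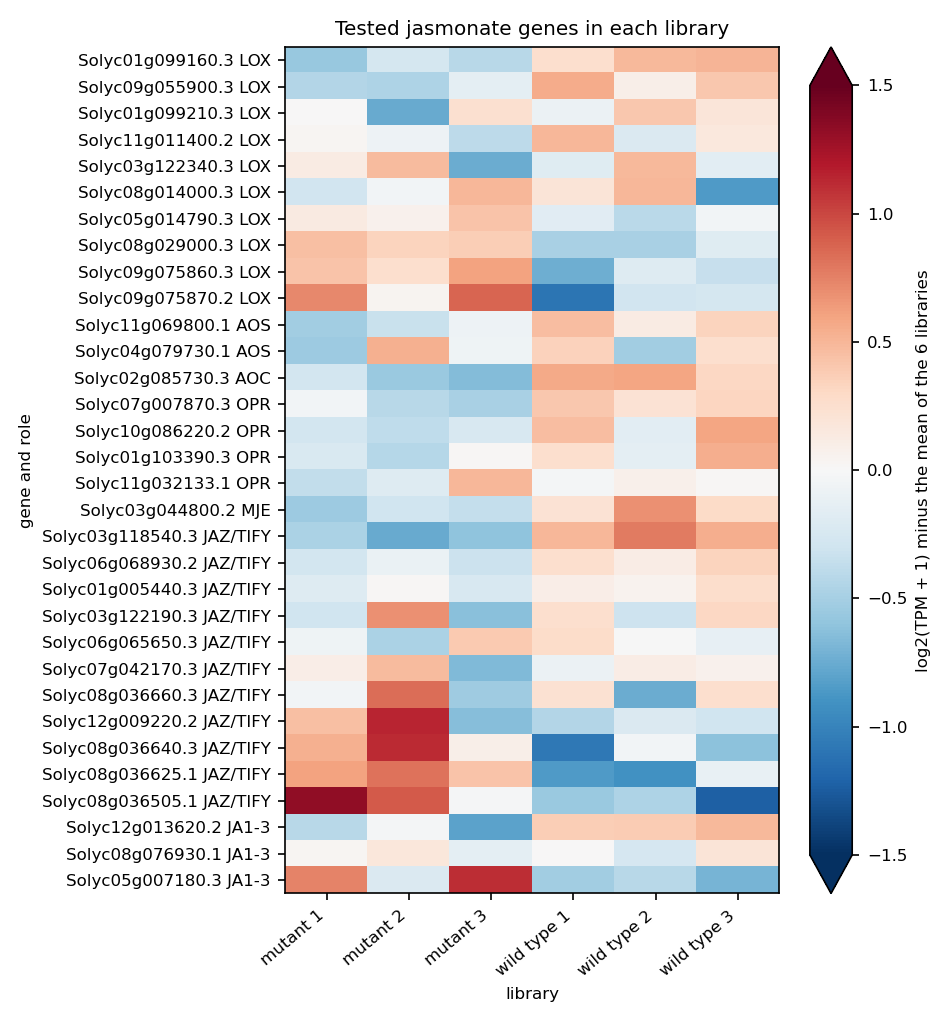
Each tested jasmonate gene in each library, as log2(TPM + 1) minus the mean of the 6 libraries for that gene (red above, blue below; values past 1.5 have the end colour). In 8 of the 11 JAZ and TIFY rows slszp1 library 2 is the highest and library 3 the lowest of the mutant libraries, whereas the synthase, cyclase and reductase rows are mostly blue in the mutant and red in wild type.

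The 3 genes described as jasmonic acid 1, 2 and 3 differed from one another. Jasmonic acid 2 (Solyc12g013620.2) is known in tomato as JA2, a NAC transcription factor of stomatal closure. It had 126, 166 and 96.9 TPM in slszp1 roots and 218, 221 and 238 TPM in wild type. All mutant libraries were lower, by -0.83 (SE 0.20; limma adjusted p 0.0230). Its p was 0.0585 without wild type library 1, 0.0629 without wild type library 3, 0.0696 without slszp1 library 1, 0.0601 without slszp1 library 3 and 0.0535 with each library centred on its median.

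Jasmonic acid 3 (Solyc08g076930.1) carries a name that RefSeq lists as a synonym of MYC2, the central activator of the response. It had 54.9, 60.8 and 48.7 TPM in slszp1 roots and 54, 45.2 and 62 TPM in wild type. The ranges overlapped almost fully, and the difference was 0.03 with a 95% interval of -0.34 to 0.41. Jasmonic acid 1 (Solyc05g007180.3) had 5.09, 2.12 and 6.8 TPM in slszp1 roots and 1.53, 1.73 and 1.23 TPM in wild type. Mutant libraries were all higher, but the gene lay just outside the threshold (1.09, SE 0.33; limma adjusted p 0.0529). It passed under quantile normalization (0.0303), with each library centred on its median (0.0460) and without slszp1 library 2 (0.00857).

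Most jasmonate genes were not read in these roots at a level that could be tested. Of the 90, 34 were at 0 in all 6 libraries and 24 had some signal below the minimum. Models labelled low quality, or with a partial protein match, made up 42 of the 90 and 2 of the 32 tested, Solyc08g036625.1 and Solyc11g011400.2. The highest value below the minimum was 11.2 TPM, from wild type library 3 alone, for Solyc01g015070.3, a lipoxygenase matched in part and at 0 in the other 5 libraries. Solyc03g044820.3, above, was the gene below the minimum that reached 0.5 TPM and did not overlap. Solyc10g007960.1, an allene oxide synthase gene named after its values were seen, had 1.11, 0.19 and 0.47 TPM in slszp1 roots and 1.29, 0.12 and 0 TPM in wild type.

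The 8 potassium channel genes share only letters with the rule. Of 4 tested, 1 rose, a called share of 25% beside 19.2% of all tested genes. Solyc07g065450.3 had 4.75, 4.86 and 6.62 TPM in slszp1 roots and 1.7, 2.84 and 2.14 TPM in wild type. The groups did not overlap, and the difference was 0.99 (SE 0.22; limma adjusted p 0.0167, and 0.0655, 0.0507 and 0.0515 without wild type library 1, wild type library 3 and slszp1 library 3). The other 3 tested channels, Solyc06g009330.3, Solyc10g006010.3 and Solyc02g071140.3, had differences of 0.17, 0.09 and 0.23 and did not pass.

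Other genes of the pathway were taken from the gene descriptions by lists of terms, 282 genes counted once. Of 122 tested, 17 rose and 13 fell (24.6%, beside the 19.2% of all tested genes), with a median difference of -0.07. In precursor release and desaturation, 2 of 10 tested genes rose and 1 fell. Phospholipase A1 frees fatty acids from membrane lipids, and its gene Solyc02g077430.3 had 32.9, 45.6 and 44.7 TPM in slszp1 roots and 10.3, 8.69 and 6.62 TPM in wild type. It rose by 2.15 (SE 0.20; limma adjusted p 0.000306). Another phospholipase A1 gene, Solyc02g077030.3, fell from 2.43 ± 0.894 to 0.763 ± 0.438 TPM (SD, n = 3; limma adjusted p 0.0481, and 0.159 without wild type library 1, 0.0861 without wild type library 2, 0.125 without slszp1 library 2 and 0.138 without slszp1 library 3, and 0.0569 to 0.0747 under another pseudocount, filter or scaling). The remaining gene that rose, Solyc10g079780.1, is a DAD1 subunit of oligosaccharyltransferase, which glycosylates proteins and is not the lipase of the same name. It had 25.9 ± 7.54 TPM in slszp1 roots and 11.4 ± 3.68 TPM in wild type (limma adjusted p 0.0346, and 0.0826 and 0.0515 without wild type libraries 1 and 3, 0.107 and 0.121 without slszp1 libraries 1 and 3, and 0.0650 with no filter on low values).

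Peroxisomal beta-oxidation, which also degrades other fatty acids, had 2 of 13 tested genes that rose and 0 that fell by limma. That is a share of 15.4% beside 19.2% of all tested genes, and 1 gene was lower at an unadjusted p under 0.05. The enoyl-CoA hydratase/isomerase gene Solyc01g091520.3 had 12.3 ± 2.19 TPM in slszp1 roots and 5.85 ± 1.34 TPM in wild type (SD, n = 3; limma adjusted p 0.0161, and 0.0523, 0.0640 and 0.0593 without wild type library 3, slszp1 library 1 and slszp1 library 2). The acyl-coenzyme A oxidase gene Solyc10g008110.3 had 147 ± 22.9 against 97.1 ± 12.9 TPM (limma adjusted p 0.0410), and its call was lost without any 1 library other than wild type library 3, with p from 0.0665 to 0.138, in limma without the trend and robust options (0.0603) and with no filter on low values (0.0646).

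Conjugation and turnover had 2 of 24 tested genes that rose and 2 that fell, a share of 16.7% beside the 19.2% of all tested genes. Genes whose description names jasmonate are members of the rule and were left out of this list. Solyc07g063850.3, described as an IAA-amido synthetase, fell from 6.04 ± 2.52 TPM in wild type to 1.32 ± 0.378 TPM (-1.55, SE 0.28; limma adjusted p 0.00635). The auxin-responsive GH3 family gene Solyc10g006610.3 rose from 1.56 ± 0.350 to 4.94 ± 1.16 TPM (1.20, SE 0.22; limma adjusted p 0.00728). A methyl esterase gene, Solyc03g070380.3, rose from 52.4 ± 6.17 to 93.2 ± 10.1 TPM (0.82, SE 0.15; limma adjusted p 0.00715), and its substrate is not given in the description. The GH3 genes whose best match is Arabidopsis JAR1, the enzyme that joins jasmonic acid to isoleucine, did not pass and were named after their values were seen. Solyc10g011660.3 had 34.6, 26.3 and 43.9 TPM in slszp1 roots and 24.6, 22.6 and 23.2 TPM in wild type, higher in every mutant library (0.53, SE 0.19; limma adjusted p 0.0937, but 0.0421 without slszp1 library 2). Solyc01g095580.3 and Solyc05g050280.3 both differed by -0.20 (limma adjusted p 0.388 and 0.754).

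Perception genes mostly did not pass, which holds for most tested genes. COI1, the receptor F-box protein (Solyc05g052620.3, described as Coronatine-insensitive 1 and named after its values were seen), had 69.9, 61.6 and 74.3 TPM in slszp1 roots and 59.6, 62.1 and 64 TPM in wild type. The difference was 0.14 with a 95% interval of -0.17 to 0.45. Of 12 tested receptor and repressor genes, 1 rose and 0 fell by limma, a share of 8.33% beside 19.2% of all tested genes. At an unadjusted p under 0.05, 0 were lower. The 1 that rose was TOPLESS1 (Solyc03g117360.3), a co-repressor of the type that JAZ proteins recruit through NINJA in Arabidopsis. It had 13.4, 13.8 and 21.6 TPM in slszp1 roots and 6.18, 9.86 and 6.92 TPM in wild type, without overlap (0.99, SE 0.24; limma adjusted p 0.0229, and 0.0791, 0.0652 and 0.0621 without wild type library 1, wild type library 3 and slszp1 library 3).

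Transcription factors named beside MYC2 and JA2 moved in opposite directions. MYC1 (Solyc08g005050.3), known in tomato trichomes as a regulator of terpene synthesis, had 25.7, 31.7 and 28.3 TPM in slszp1 roots and 11.4, 8.81 and 11 TPM in wild type. It rose by 1.38 (SE 0.17; limma adjusted p 0.000915), with all mutant libraries above all wild type libraries. JA2-like (Solyc07g063410.3), the NAC factor paired with JA2 in tomato guard cells, had 63.1, 61.1 and 60.7 TPM in slszp1 roots and 133, 118 and 202 TPM in wild type. It fell by 1.24 (SE 0.20; limma adjusted p 0.00406), so both JA2 and JA2-like were lower in the mutant. The other 2 tested genes of that list, described as bHLH140-like and bHLH143, match only by the letters of the pattern and did not pass.

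Other oxylipin branches also start from lipoxygenase products, from 9- or 13-lipoxygenases. CYP74C4 (Solyc01g109150.4), a cytochrome P450 of the allene oxide synthase family, had 19.8, 13.4 and 23.6 TPM in slszp1 roots and 4.76, 5.68 and 7.99 TPM in wild type. It rose by 1.47 (SE 0.25; limma adjusted p 0.00488). Hydroperoxide lyase (Solyc07g049690.3), which makes short leaf aldehydes, had 5.73, 6.46 and 6.92 TPM in slszp1 roots and 11.7, 15.4 and 15.5 TPM in wild type. It fell by 1.04 (SE 0.18; limma adjusted p 0.00523), and for both genes the groups did not overlap. Divinyl ether synthase (Solyc01g109140.3, named after its values were seen), an enzyme of 9-lipoxygenase products, was abundant at 927, 903 and 573 TPM in slszp1 roots and 1319, 1076 and 1367 TPM in wild type. Every mutant library was lower, but the gene did not pass (-0.67, SE 0.23; limma adjusted p 0.0743).

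The defence list, taken by words such as proteinase inhibitor and threonine deaminase, changed in both directions. Some of these proteins are known to be induced by jasmonate in wounded tomato leaves, and which listed genes are was not examined. Of 45 tested genes 6 rose and 8 fell, a share of 31.1% beside 19.2% of all tested genes, with a median difference of -0.24. Among the smallest p-values of the list were those of Solyc09g082300.3, at 3.63, 6.33 and 3.51 TPM in slszp1 roots and 35.7, 35.1 and 35.9 TPM in wild type (-2.77, SE 0.21; limma adjusted p 0.000101), and its neighbour by identifier Solyc09g082290.3, at 2.24 ± 0.667 against 14.7 ± 1.63 TPM (-2.29, SE 0.21; limma adjusted p 0.000263). Both are described as a protease inhibitor, seed storage and lipid transfer family, a fold that is mostly known from lipid transfer proteins. The proteinase inhibitor gene Solyc07g009435.1, matched in part, had 394, 386 and 421 TPM in slszp1 roots and 36.5, 72.1 and 37.6 TPM in wild type, a rise of 3.08 (SE 0.25; limma adjusted p 0.000157). Threonine deaminase (Solyc09g008670.3), a jasmonate-induced enzyme that in tomato deprives feeding insects of threonine, was named after its values were seen. It had 8.69, 9.83 and 6.97 TPM in slszp1 roots and 40.5, 87.2 and 69.5 TPM in wild type, and fell by 2.76 (SE 0.27; limma adjusted p 0.000468). Leucine aminopeptidase A (Solyc12g010040.2), also named after its values were seen, is a further wound marker of tomato. It had 101, 84.5 and 118 TPM in slszp1 roots and 110.2, 131 and 122 TPM in wild type, and did not pass (-0.26, 95% interval -0.64 to 0.11). Other listed genes, also named after their values were seen, went the other way. Prosystemin (Solyc05g051740.3, matched in part) had 28.4, 35.8 and 44.3 TPM in slszp1 roots and 17.5, 19.7 and 9.24 TPM in wild type. It rose by 1.22 (limma adjusted p 0.0210, and 0.0631 and 0.0820 without slszp1 libraries 2 and 3). Proteinase inhibitor 2 (Solyc01g095200.3) was higher in every mutant library but did not pass (limma adjusted p 0.450). The tested genes described as Pin-II type, type II or proteinase inhibitor II all had negative differences and did not pass. Examples are Solyc03g020080.3 (-1.32; limma adjusted p 0.0687) and Solyc06g061215.1 (-0.67; limma adjusted p 0.159). The Kunitz-type inhibitor gene Solyc03g019690.1 fell from 4708 ± 938 to 1655 ± 524 TPM (-1.53, SE 0.27; limma adjusted p 0.00523).

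Wound-described genes outside these groups held 2 that rose of 11 tested, a share of 18.2% beside 19.2% of all tested genes. Solyc02g083310.3 had 41.6, 33.4 and 54.7 TPM in slszp1 roots and 14.1, 16.2 and 16 TPM in wild type (1.40, SE 0.19; limma adjusted p 0.00172). Solyc07g054760.1, a gene model marked low quality, had 8.49, 7.1 and 6.73 TPM in slszp1 roots and 1.74, 1.57 and 0 TPM in wild type (2.13, SE 0.38; limma adjusted p 0.00621, but 0.0874 with a pseudocount of 0.1). The median difference of the 11 tested genes of that list was -0.34, opposite in sign to both calls.

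**Figure D4:**
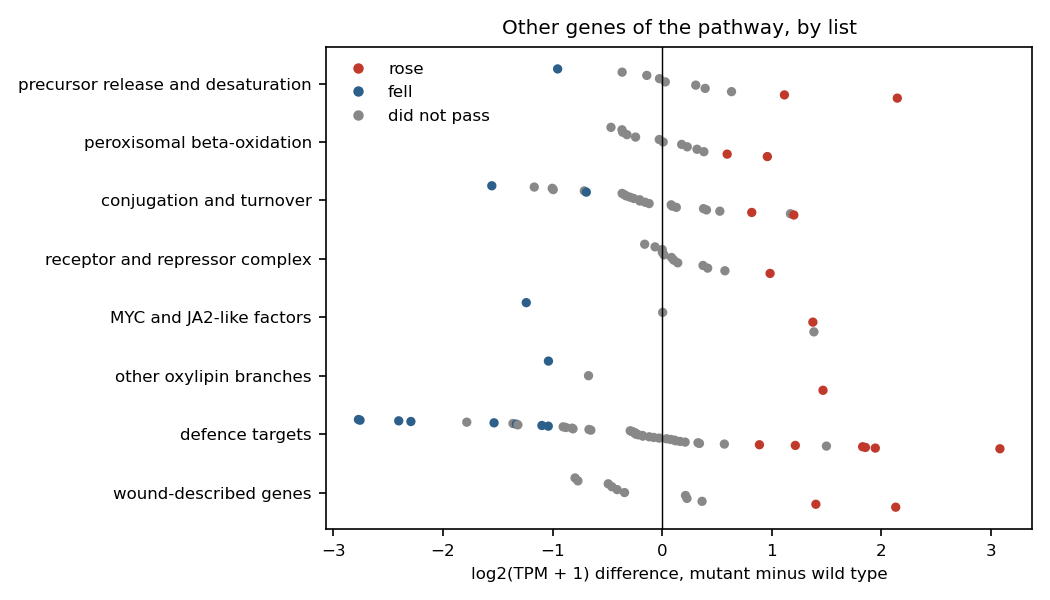
Differences in log2(TPM + 1), mutant minus wild type, of the tested genes in 8 lists of other pathway genes, 1 point per gene, with genes that rose in red, genes that fell in blue and the others in grey. The defence list spreads widest, from -2.77 to 3.08, and the receptor and repressor list stays between -0.16 and 0.99.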

How the data were processed

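RNA from 6 root libraries was sequenced, 3 per genotype. The authors deposited 1 table of values per gene and library, taken here as TPM because columns summed to 940695 to 974316 with 2 decimals; the header names no unit. Per the submitters' processing notes, HISAT2, TopHat2, StringTie and Cufflinks were used, without versions or roles. The genome build and the strand setting are not given in the sources used here. Depth cannot be had from TPM, so no counting interval was computed.

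Groups came from the labels. The 17702 genes that reached 1 TPM in any 3 libraries were compared on log2(TPM + 1) in R 4.3.3 by limma 3.58.1 with trend and robust options (statmod 1.5.0), and p-values were adjusted by the Benjamini-Hochberg method. Pseudocount, filter, scaling, replicate block, moderation, 2-fold minimum, gene model quality and each library were varied.

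Members, lists and the naming rule were chosen with earlier results of these data known. The rule named every called member, up to 3 abundant uncalled members per role, untested members without overlap that reached 0.5 TPM, and up to 3 called genes per pathway list by p. Of the gene identifiers, 0 matched the RefSeq table, so no sequence or coordinate is given.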

Additional observations from a re-analysis of the deposited data

How the results depend on the processing

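Depth is unknown, so TPM near 1 carry an unknown counting error, and 3 libraries a genotype leave most calls dependent on single libraries. Members called higher (6) numbered 0 to 7 when 1 library was left out, and members called lower (7) numbered 3 to 9. With 0 called higher, without wild type replicate 1, 8 had an unadjusted limma p under 0.05. Over all tested genes the 1542 higher calls ranged from 994 to 1764 and the 1865 lower calls from 1131 to 2042 with 1 library left out. With a change of at least 2-fold on the log2(TPM + 1) scale required, 3 members were higher and 1 lower, and 911 and 1107 of all genes. The replicate block gave 5 members higher and 5 lower, with 9 of 13 calls kept (the 4 lost were Solyc03g044800.2 at an adjusted p of 0.0715, Solyc08g036625.1 at 0.0533, Solyc09g075870.2 at 0.0649 and Solyc11g069800.1 at 0.0730, by limma). It gave 1276 and 1499 over all genes, and 15 and 13 over the other pathway lists, where Solyc10g079780.1 (0.0799) and Solyc05g051740.3 (0.0616) were among those that no longer passed. Deviations of libraries with the same number correlated at -0.048, -0.074 and 0.108, and those with different numbers at -0.083 to 0.141. These values showed no shared shift by number, but they cannot settle whether the numbers pair the samples. No other setting moved a member count by over 1.5 times: 8 and 8 under quantile normalization, 7 and 6 with median centring, 5 and 5 without the filter, 6 and 7 with a pseudocount of 0.1 or without trend and robust options, 5 and 7 without low quality models, and 5 and 7 without the potassium channels, a setting added after seeing the data. No called member reversed. Of 36 tested members, 20 kept their call, or their lack of one, in all 12 refits, before any 2-fold requirement. Of the 13 called members, 3 did so. The sign of uncalled members was not required to hold, and it turned for some of them, such as lipoxygenase D. The median of all genes moved by at most -0.06.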
